A study of Mus musculus with 9 samples.

Results

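Aqp1, Aqp4, Aqp7 and Aqp8 are the 4 aquaporin genes described here, out of 15779 genes with values in the deposited tables of adult mouse hearts. They were picked by symbol, and the choice was made because Aqp8 was higher and Aqp4 lower in mutant hearts and because the pair differed after treatment. The differences of all 4 between the groups are therefore given as descriptions, without a test. Tests are given only for other genes. Of 8 further aquaporins looked up (Mip, Aqp2, Aqp3, Aqp5, Aqp6, Aqp9, Aqp11 and Aqp12), only Aqp11 had a row in the tables.

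According to its title, the study concerned base editing against hypertrophic cardiomyopathy in mice with a stop codon in Mybpc3, which encodes the cardiac form of myosin-binding protein C in the sarcomere. All mice were of the C57BL/6J strain. One group was wild type and given saline, one carried the R946X mutation on both Mybpc3 alleles and was given saline, and one carried the same homozygous mutation and was given exABE8e at what the labels call a high dose. Each group had 3 libraries of polyA RNA from heart tissue. An adenine base editor is a deaminase joined to a Cas9 variant that turns A into G at a guided site. According to the series' design, it was delivered by AAV9, an adeno-associated virus, and expressed in cardiomyocytes. The labels gave no age beyond adult, no sex and no dose in figures, and they did not say whether each library was a separate mouse. All p-values below measure the spread between these libraries.

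Aquaporins are membrane proteins that form narrow pores for water. A subgroup, the aquaglyceroporins, also passes glycerol. In the heart, Aqp1 is the water channel of the endothelium and is also abundant in red blood cells. Aqp4 is a water channel held at the membrane of muscle cells and glia by the dystrophin complex. Aqp7 is an aquaglyceroporin of fat cells that is also found in heart muscle and capillaries. Aqp8, best known from liver, pancreas and colon, passes water, ammonia and hydrogen peroxide.

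On GRCm38, Aqp8 (ENSMUSG00000030762.11) lies on the plus strand of chromosome 7 from 123462291 to 123468004, Aqp1 (ENSMUSG00000004655.5) on the plus strand of chromosome 6 from 55336432 to 55348555, and Aqp7 (ENSMUSG00000028427.13) on the minus strand of chromosome 4 from 41033074 to 41048139. All 3 are protein-coding in GENCODE M21, and no other annotated gene overlaps them. Aqp4 is overlapped by 1 annotated antisense gene, AC133525.2, which had no row in the tables. The sources used here do not state whether reads were counted by strand. The RefSeq promoter table (GRCm38.p6) held 3 of the 4 members. Distances to a start below use the RefSeq starts, which differ from the GENCODE starts given above for Aqp8, Aqp1 and Aqp7. The 250 bases before the start are printed for Aqp8, the member with the largest log2(value + 1) difference among those above 0 in both saline groups, and for Aqp1, the member with the highest level, so that the 2 promoters can be compared. Capitals mark matches on either strand to 5 short motifs. The E-box was searched as CANNTG and the GC box as GGGCGG. The CCAAT box was searched by its own letters, the core of the TATA box as TATAAA, and the site of GATA factors as GATAA, and no motif was allowed a mismatch.
Aqp8, chr7:123462044-123462293, plus strand: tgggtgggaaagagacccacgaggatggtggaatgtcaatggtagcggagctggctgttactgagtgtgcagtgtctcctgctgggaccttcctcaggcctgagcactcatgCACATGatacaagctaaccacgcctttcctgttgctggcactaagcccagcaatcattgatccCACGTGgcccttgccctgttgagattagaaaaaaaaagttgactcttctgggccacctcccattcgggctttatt
Aqp1, chr6:55336049-55336298, plus strand: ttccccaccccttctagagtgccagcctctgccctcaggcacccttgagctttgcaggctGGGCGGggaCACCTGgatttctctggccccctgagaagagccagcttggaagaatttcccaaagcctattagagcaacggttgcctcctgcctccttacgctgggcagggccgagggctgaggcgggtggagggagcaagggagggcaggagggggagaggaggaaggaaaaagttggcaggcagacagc
The Aqp8 window held 2 E-box matches, beginning 138 and 75 bases before the start, and none of the other 4 motifs. The Aqp1 window held 1 GC box, beginning 190 bases before the start, and 1 E-box at 181 bases. An E-box match was found in 66.2% of the 32851 promoters in the table, a GC box in 32.7%, CCAAT in 33.8%, GATAA in 22.6% and TATAAA in 12.4%. G and C made up 52.4% of the Aqp8 window and 62.0% of the Aqp1 window, beside a median of 52.4% over all promoters. Aqp7 has 2 starts in the table, each with 2 E-box matches.

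The values are whole numbers, and each library summed to between 999152 and 999382. No label or header names the unit, and the depth is unknown. The values were read as scaled for transcript length, which was not tested, and comparisons of levels between genes below rest on that reading. Mybpc3, the targeted gene, read 1510, 1795 and 2039 in the wild-type libraries, against 133, 142 and 186 in the saline mutants, with 1024, 1374 and 1332 after treatment, so the treated hearts lay between the saline groups without overlap. Xist was above 0 in 3 libraries, 1 in each group: wild type replicate 1 (119), saline mutant replicate 3 (351) and treated replicate 1 (39). Ddx3y was at 0 in the first 2 of these and at 38 in the treated one, which thus carried both transcripts. Whether that library holds RNA of more than 1 animal was not tested, and its values (Mybpc3 1024, Aqp4 2 and Aqp8 33) are read with that limit. Results are given below with and without these 3 libraries.

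Aqp8 was nearly absent from wild-type hearts and was the second most abundant aquaporin in saline mutants. Its values were 2, 1 and 3 in wild type, 78, 75 and 62 in saline mutants and 33, 22 and 38 after treatment. The 3 groups did not overlap, and the treated hearts lay between the others. The means were 2.0 ± 1.0, 71.7 ± 8.5 and 31.0 ± 8.19 (SD, n = 3). The saline mutant mean was 35.8-fold the wild-type mean. Because the values are rounded, moving both means by 0.5 puts this ratio anywhere from 28.5 to 48.1, and single libraries gave ratios from 20.7 to 78. Treated hearts were at 43.3% of the saline mutant mean and 15.5-fold the wild-type mean. In a heart sample, more cells with a transcript and more of it per cell cannot be told apart. On the log2(value + 1) scale, which understates the change of low genes, Aqp8 differed by 4.65 (SE 0.24) between saline mutant and wild type, by -1.21 (SE 0.197) between treated and saline mutant, and by 3.44 (SE 0.291) between treated mutant and wild type. Without the 3 libraries with Xist, the means were 2.0 in wild type, 76.5 in saline mutants, with 30.0 in treated hearts.

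Aqp4 went the other way. It was 7, 15 and 10 in wild type, was listed at 0 in each of the 3 saline mutants, and was 2, 6 and 5 in treated mutants. The groups did not overlap, although the highest treated heart (6) was just below the lowest wild-type heart (7). A level of 0 in a rounded table allows a value up to 0.5, so no fold change against the saline mutants is given. Aqp4 was the only gene in the tables with at least 5 in each wild-type library and 0 in each saline mutant. The cut of 5 lies just below its lowest wild-type value (7), and Aqp4 was chosen for its fall in mutants. Nothing is therefore read from its being the only one. No gene with a value of 10 or more in 8 libraries was listed at 0 in the remaining one. Treated hearts were at 40.6% of the wild-type mean (4.33 ± 2.08 against 10.7 ± 4.04, SD, n = 3), and rounding puts the ratio between 0.343 and 0.475. The log2 difference was -1.16 (SE 0.365). Without the 3 libraries with Xist, the means were 12.5, 0 and 5.5.

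Aqp7 was 41, 32 and 34 in wild type, 27, 25 and 31 in saline mutants, with 22, 20 and 26 in treated hearts. The saline mutants lay just below the wild-type range, and the treated hearts overlapped the saline mutants and lay below every wild-type heart. The saline mutant mean was 77.6% of the wild-type mean and the treated mean was 63.6% of it. Treated hearts thus did not lie between the saline groups for this gene, unlike for Aqp8 and Aqp4. The log2 differences were -0.35 (SE 0.136) for saline mutant against wild type, -0.28 (SE 0.144) for treated against saline mutant and -0.63 (SE 0.142) for treated mutant against wild type. Without the libraries with Xist, the means were 33.0, 26.0 and 23.0, in the same order.

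Aqp1 had the highest level of the family in every library. Its values were 500, 473 and 661 in wild type, 521, 504 and 546 in saline mutants, with 566, 577 and 591 in treated hearts. The wild-type range covered both mutant groups. Treated hearts were above saline mutants without overlap, by 0.14 on the log2 scale (SE 0.0939), a ratio of means of 1.1. The log2 difference between saline mutant and wild type was -0.04 (SE 0.135), and over the alternative fits it ran from -0.14 to 0.11, positive only without wild type replicate 3. Between treated mutant and wild type it was 0.1 (SE 0.136). Without the libraries with Xist, the means were 567 in wild type, 512 in saline mutants and 584 in treated hearts.

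**Figure D1:**
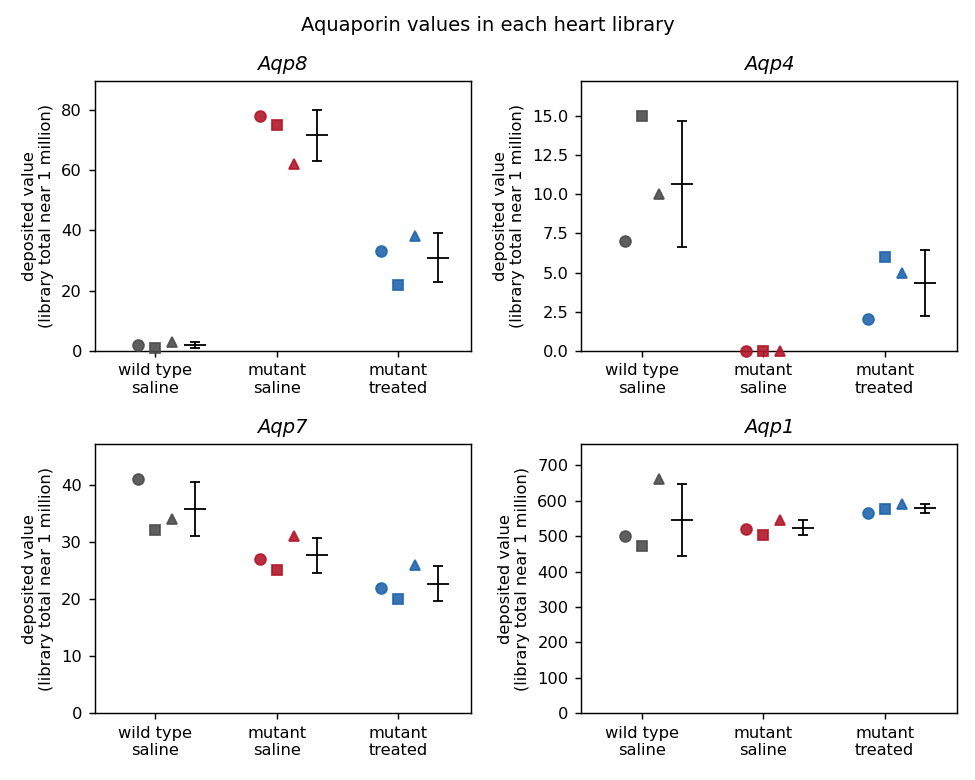
Deposited values (y axes, linear from 0, as deposited) of the 4 aquaporins in wild-type saline, mutant saline and mutant treated hearts. Circles, squares and triangles are replicates 1, 2 and 3, and bars are mean ± SD (n = 3), with none drawn for Aqp4 in saline mutants, where all values are 0; Aqp8 reads 62 to 78 in saline mutants against 1 to 3 in wild type, and Aqp1 overlaps between wild type and both mutant groups.

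Among other genes, groups without overlap were frequent: 21.6% of the 13632 genes tested between saline mutant and wild type, 9.82% of 13636 between treated and saline mutant, and 14.6% of 13554 between treated mutant and wild type. The members were chosen on these contrasts, so nothing is read from how their own ranges compare with those shares.

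The order of the aquaporins by level differed between the groups. In wild type it was Aqp1 (545 ± 102), Aqp7 (35.7 ± 4.73), Aqp4 (10.7 ± 4.04), Aqp11 (2.33 ± 0.577) and Aqp8 (2.0 ± 1.0), where the last 2 overlapped. In saline mutants it was Aqp1 (524 ± 21.1), Aqp8 (71.7 ± 8.5), Aqp7 (27.7 ± 3.06), Aqp11 (1.33 ± 0.577) and Aqp4, listed at 0. In treated mutants it was Aqp1 (578 ± 12.5), Aqp8 (31.0 ± 8.19), Aqp7 (22.7 ± 3.06), Aqp4 (4.33 ± 2.08) and Aqp11 (1.33 ± 0.577). In treated hearts the ranges of Aqp8 and Aqp7 overlapped, from 22 to 38 and from 20 to 26. Aqp11, an aquaporin of intracellular membranes, was 2, 2 and 3 in wild type, 1, 2 and 1 in saline mutants, with 1, 2 and 1 in treated hearts, and it was not called in any comparison (limma adjusted p 0.272, 1 and 0.409).

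How far Aqp8 and Aqp4 returned with treatment depended on the scale. Each treated heart was placed between the saline mutant mean (0) and the wild-type mean (1). On the values themselves, Aqp8 lay at 0.555, 0.713 and 0.483 in treated replicates 1 to 3 (mean 0.584 ± 0.117, SD). Aqp4 lay at 0.188, 0.562 and 0.469 (mean 0.406 ± 0.195), so its mean was below that of Aqp8, with ranges that overlapped. On log2(value + 1) the order turned: Aqp8 lay at 0.234, 0.356 and 0.192 (mean 0.261 ± 0.085) and Aqp4 at 0.455, 0.805 and 0.741 (mean 0.667 ± 0.187), without overlap. With a pseudocount of 0.5 the means were 0.249 and 0.715. Mybpc3 lay at 0.535, 0.75 and 0.724 on the values (mean 0.669 ± 0.117) and at a mean of 0.853 ± 0.0659 on the log2 scale. Replicate 1 was the lowest of the 3 treated hearts for Mybpc3 and Aqp4 on both scales, and replicate 2 the highest for all 3 genes. Without the libraries with Xist, 2 treated hearts remained. Their mean positions on the values were 0.624 for Aqp8 and 0.44 for Aqp4, and on the log2 scale 0.287 and 0.723. With treated replicate 1 alone left out, the mean positions on the values were 0.598 for Aqp8 and 0.516 for Aqp4.

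**Figure D2:**
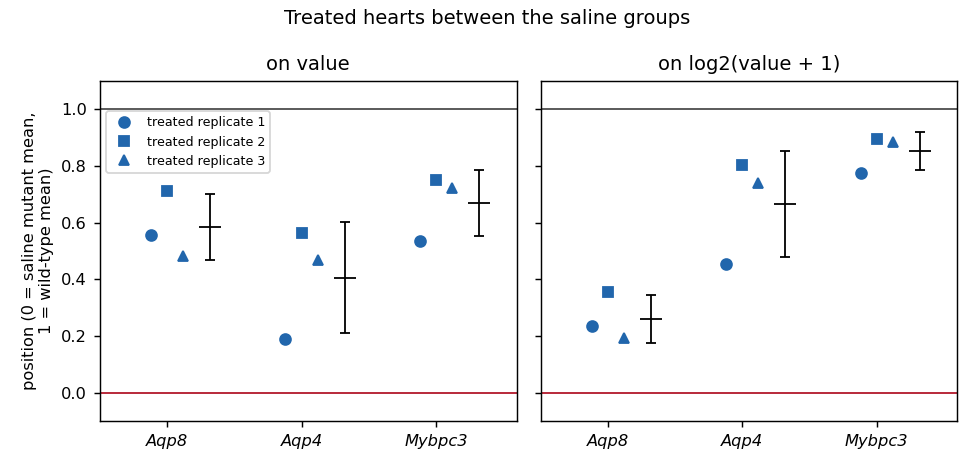
Position of each treated heart (y axis, 0 is the saline mutant mean and 1 the wild-type mean) for Aqp8, Aqp4 and Mybpc3, on the deposited values (left) and on log2(value + 1) (right). Symbols are treated replicates 1 to 3 and bars are mean ± SD; the Aqp8 mean is above that of Aqp4 on the left (0.584 and 0.406) and below it on the right (0.261 and 0.667).

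The genes with the most like pattern were looked for among the 10439 genes with a mean of at least 5, by the mean absolute difference of log2(value + 1) over the 9 libraries after each gene's own mean was taken off. For Aqp4 the nearest was Mybpc3 itself, at a distance of 0.326, where the median gene was at 1.38. Next came Pla2g5, a secreted phospholipase (0.401), and Scn4b, a beta subunit of the cardiac sodium channel (0.416). Pla2g5 was 28, 32 and 28 in wild type, 6, 2 and 3 in saline mutants, with 9, 15 and 13 in treated hearts. Scn4b was 24, 21 and 25, then 4, 3 and 2, then 12, 18 and 13. Each of these genes was lowest in the saline mutants and in between in the treated hearts. The search ranked genes by likeness to Aqp4, so this shared order follows from the search and is not a further result. The distances also depend on the 1 added before the logarithm, because Aqp4 was listed at 0 in the saline mutants. No other added value was tried in this search.

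For Aqp8 the nearest was Myot, which encodes myotilin of the Z-disc, at a distance of 0.45, where the median gene was at 1.78. Myot was 14, 9 and 18 in wild type, 261, 238 and 245 in saline mutants, with 243, 229 and 106 in treated hearts. Adamts20, a secreted metalloprotease (0.475), was 0, 1 and 0, then 11, 14 and 16, then 7, 4 and 10. Cpxm2, a carboxypeptidase-like protein (0.566), was 5, 7 and 13, then 108, 93 and 64, then 63, 49 and 40. Adamts20 and Cpxm2 were in between in the treated hearts, as Aqp8 was. Myot was not: 2 of its treated values were close to the saline mutants. Here too the search ranked genes by likeness, so what they share with Aqp8 is not a further result. The distances again depend on the 1 added before the logarithm, because Aqp8 and Adamts20 were low in wild type.

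Aqp1 and Aqp7 varied less than Aqp8 and Aqp4, and so did their neighbours in this search. The nearest to Aqp1 were Gmeb2 (0.0623), Zswim7 (0.067) and Dctn2 (0.0684), where the median gene was at 0.194. Those nearest to Aqp7 were Oaz1.ps (0.0655), Mospd3 (0.098) and Gm28439 (0.105), where the median gene was at 0.285. Oaz1.ps is a pseudogene, and reads from its parent gene cannot be told apart from its own here. Oaz1.ps was 19, 16 and 15 in wild type, 13, 12 and 14 in saline mutants, with 11, 9 and 11 in treated hearts.

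**Figure D3:**
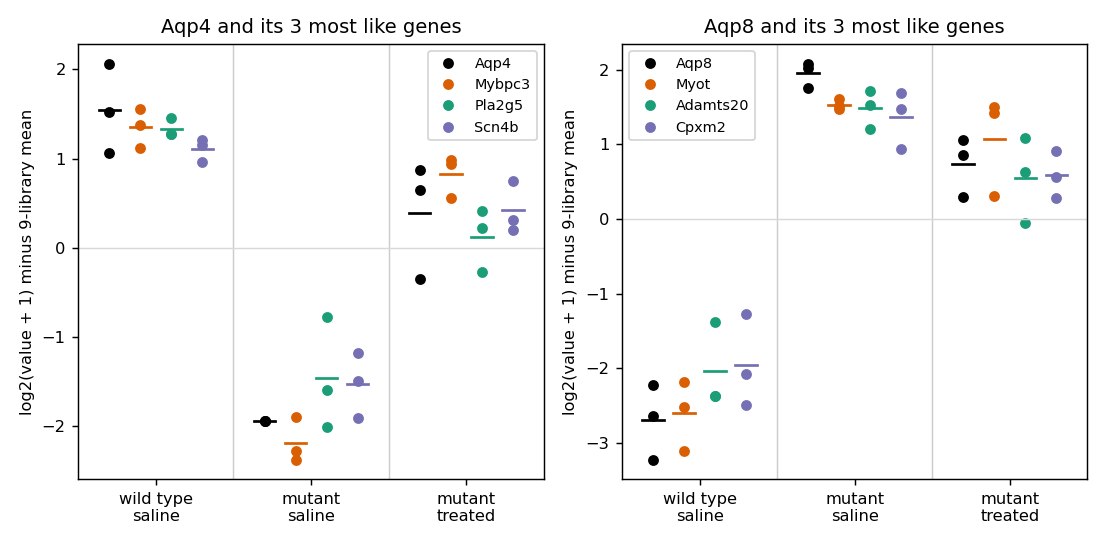
log2(value + 1) minus each gene's 9-library mean (y axis) for Aqp4 with Mybpc3, Pla2g5 and Scn4b (left) and for Aqp8 with Myot, Adamts20 and Cpxm2 (right). Dots are libraries, 3 per gene and group, and short bars are group means; the Aqp4 set is lowest in saline mutants, the Aqp8 set lowest in wild type.

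Genes that work with the aquaporins were tested from 4 lists, on all genes at once. With limma at an adjusted p under 0.05, 1050 of the 13632 genes (7.70%) passed between the saline groups, 622 of them higher (4.56%) and 428 lower (3.14%) in the mutant. That count was 609 without wild type replicate 1, 640 without wild type replicate 3, 506 without saline mutant replicate 2, 688 without saline mutant replicate 3 and 556 without the 3 libraries with Xist.

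Of 12 genes for the anchoring and partners of Aqp4, 11 were tested, 1 rose and none fell between saline mutant and wild type, and their median log2 difference was 0.15, beside 0.07 over all genes tested. The one that rose was Sntb1, beta-1-syntrophin, at 9, 14 and 11 in wild type and 22, 24 and 25 in saline mutants, a log2 difference of 1.02 (SE 0.165, limma adjusted p 0.00718). It was 6, 10 and 19 in treated hearts, overlapping wild type and below every saline mutant, and it lost its call only when all 9 libraries were fitted together (0.0846). Dmd, which encodes dystrophin, differed by 0.38 (limma adjusted p 0.103). Dag1, dystroglycan, differed by 0.06 and Dtna, alpha-dystrobrevin, by 0.15, and neither was called. Kcnj10, a potassium channel found beside Aqp4 in glia, had a value of at most 1 in any library and was not tested.

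Of 18 genes that release, store or use glycerol and triglyceride, 16 were tested, none rose and 1 fell, with a median log2 difference of -0.15. It was Mgll, monoglyceride lipase, which sets glycerol free in the last step of triglyceride breakdown. Mgll was 175, 184 and 180 in wild type, 119, 126 and 141 in saline mutants, with 155, 151 and 174 in treated hearts, and it differed by -0.48 between the saline groups (SE 0.0988, limma adjusted p 0.0201). The treated hearts lay between the saline groups. Its adjusted p was 0.0687 without wild type replicate 2, 0.0807 without wild type replicate 3, 0.0655 without saline mutant replicate 1 and 0.107 without saline mutant replicate 2. Gk, the glycerol kinase that uses what Aqp7 carries, was 40, 40 and 40 in wild type, 47, 47 and 45 in saline mutants, with 40, 38 and 46 in treated hearts, and was not called (0.21, limma adjusted p 0.277). The lipases Pnpla2 (-0.12) and Lipe (-0.32) were not called either. Plin1, which coats the lipid droplets of fat cells, had no row.

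Of 21 genes that make or remove hydrogen peroxide, all were tested, 2 rose and none fell between saline mutant and wild type, with a median log2 difference of 0.13. Gpx3, the secreted glutathione peroxidase, was 200, 177 and 170 in wild type, 231, 269 and 270 in saline mutants, with 376, 425 and 205 in treated hearts (0.49, SE 0.109, limma adjusted p 0.029). The treated hearts reached above the saline mutants in 2 libraries and below them in replicate 3. Nox4, an oxidase that forms hydrogen peroxide, was 1, 2 and 2 in wild type, 5, 4 and 13 in saline mutants, with 4, 5 and 3 in treated hearts (1.51, SE 0.374, limma adjusted p 0.0437). Leaving out wild type replicate 2 or 3 gave Gpx3 an adjusted p of 0.085 or 0.123, and leaving out saline mutant replicate 2 or 3 gave 0.141 or 0.09. It was 0.0501 without the libraries with Xist, 0.0572 with median-of-ratios factors and 0.262 with all 9 libraries in 1 fit. For Nox4 it became 0.181, 0.0651 and 0.0849 on leaving out wild type replicate 1, 2 or 3, 0.0629 without saline mutant replicate 3 and 0.136 without the libraries with Xist. Cat, catalase, was 263, 239 and 268 in wild type and 291, 281 and 272 in saline mutants, and was not called (0.13, limma adjusted p 0.492).

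Of 24 genes for cell volume and osmolytes, 22 were tested, 1 rose and 2 fell, with a median of 0.07, the same as over all genes. The values are given for 1 of those that fell and for the one that rose. Stk39, a kinase of the chloride cotransporters, was 121, 117 and 113 in wild type, 73, 87 and 90 in saline mutants, with 87, 96 and 102 in treated hearts (-0.49, SE 0.109, limma adjusted p 0.0291). Slc12a7, a potassium-chloride cotransporter, was 153, 177 and 170, then 251, 237 and 201, then 234, 230 and 204 (0.46, SE 0.115, limma adjusted p 0.0467). The treated hearts overlapped the saline mutants for both genes. Stk39 had 0.0908, 0.077 and 0.0825 without wild type replicates 1, 2 and 3, 0.0775 and 0.0917 without saline mutant replicates 1 and 2, and 0.0662 without the libraries with Xist. Slc12a7 had 0.138, 0.0727 and 0.128 without wild type replicates 1, 2 and 3, 0.123 and 0.187 without saline mutant replicates 1 and 2, and 0.158 with median-of-ratios factors. The volume-regulated anion channel subunit Lrrc8a differed by 0.07 and Nfat5, a transcription factor of the osmotic response, by 0.16, and neither was called.

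**Figure D4:**
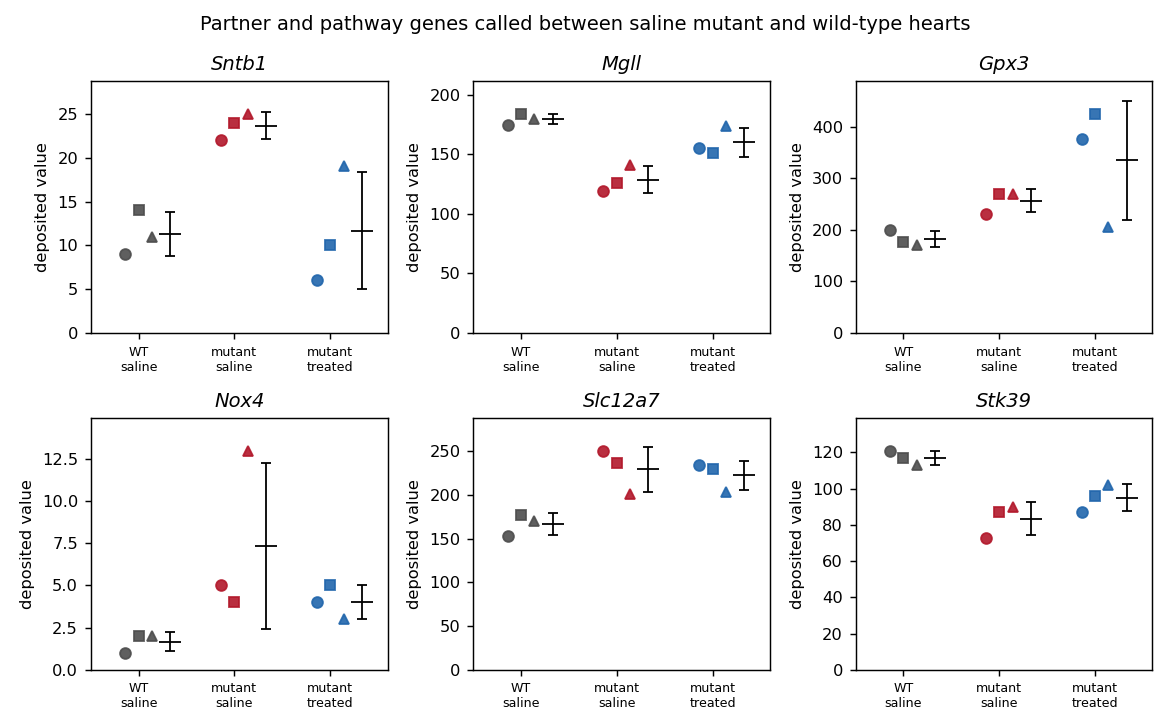
Deposited values (y axes, linear from 0) of 6 listed genes that passed the test between the saline groups, in the 3 groups. Symbols are replicates 1 to 3 and bars are mean ± SD (n = 3); treated hearts lie between the saline groups for Mgll, overlap wild type for Sntb1, and are above the saline mutant range in 2 of 3 libraries for Gpx3.

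With treatment, none of the genes in these 4 lists was called. Over all genes, 2 of 13636 were called between treated and saline mutant (0.0147%) and 1130 had an unadjusted p under 0.05; the count was 7 without saline mutant replicate 1, 4 without treated replicate 1 and 8 without treated replicate 3. The median log2 differences with treatment were -0.06 for the anchoring list, 0.11 for glycerol, 0 for hydrogen peroxide and 0.04 for cell volume, beside -0.02 over all genes. Between treated mutant and wild type, 134 of 13554 genes were called (0.989%), and none was in the 4 lists. Leaving out wild type replicate 1, 2 or 3 left 1, 3 or 12 calls, leaving out treated replicate 1 or 2 left 24 or 22, and leaving out the 3 libraries with Xist left 9. The list medians there were 0.19, -0.1, 0.01 and 0.13, beside 0.01 over all genes. The comparisons with the saline mutants share those libraries, and the comparisons with wild type share the wild-type libraries.

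Markers of the cell types that carry aquaporins were read in the same libraries, and their part in the aquaporin values was not tested. All 8 cardiomyocyte markers were above 0 in every library, with none called in any comparison. All 9 endothelial markers were present in every library, with sums of 1131 to 1489 in wild type, 1007 to 1173 in saline mutants, with 1060 to 1201 in treated hearts, and none was called. Red blood cell markers, 6 of 7 with a row, summed to 104 to 313 in wild type, 69 to 85 in saline mutants, with 140 to 158 in treated hearts. The median log2 difference of the 5 tested was -1.36 for the saline groups, where Aqp1 differed by -0.04. It was 0.9 for treatment within the mutant, where Aqp1 differed by 0.14, and -0.47 for treated hearts against wild type, where Aqp1 differed by 0.1. Among these, Hba.a2 and Alas2 fell between saline mutant and wild type (limma adjusted p 0.0414 and 0.0361), and Hba.a1 was at 0.0517. Without the libraries with Xist, both lost the call (0.285 and 0.162). Without wild type replicates 1 and 2, Hba.a2 was at 0.176 and 0.122 and Alas2 at 0.16 and 0.0937; without saline mutant replicates 2 and 3, Hba.a2 was at 0.0971 and 0.124 and Alas2 at 0.133 and 0.062, and without saline mutant replicate 1 Alas2 was at 0.0668.

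Of 7 adipocyte markers, 5 had no row, including Adipoq and Plin1, Cfd was at most 1, and the remaining one was Fabp4, which endothelium also expresses. Fabp4 was 921, 798 and 734 in wild type, 592, 608 and 921 in saline mutants, with 539, 487 and 709 in treated hearts, and was not called (limma adjusted p 0.532, 0.746 and 0.242 in the 3 comparisons). Its order of means was that of Aqp7. Glial markers, 5 of 6 with a row, summed to 7 to 15 in wild type, 4 to 7 in saline mutants, with 7 to 10 in treated hearts, the order of Aqp4, with Gfap at 0 in both saline groups and none called. Markers of liver, pancreas and gut, where Aqp8 is usually found, had 7 of 10 genes with a row and sums of 0 to 2 in wild type, 6 to 13 in saline mutants, with 5 to 8 in treated hearts. In saline mutants most of this was Krt8, a keratin. Krt8 was at 0 in wild type, 6, 8 and 8 in saline mutants, with 5, 2 and 3 in treated hearts. It rose between the saline groups (limma adjusted p 0.000253, and at most 0.00724 in 14 alternative fits). No fold is given for it, since wild type was at 0. Alb, the main liver transcript, was 2, 0 and 0 in wild type, 0 in every saline mutant, and 1, 1 and 2 in treated hearts. Atrial markers, 3 of 6 with a row, summed to 59 to 81, 365 to 1500 and 166 to 268, and all 3 were called between saline mutant and wild type, in different directions. Nppa, which made up most of the sum, rose by 3.95 on the log2 scale (limma adjusted p 0.0011) and Myl4 by 1.19 (limma adjusted p 0.0125), while Stard10 fell by 1.6 (limma adjusted p 0.00428). Myl4 was at 0.06 without wild type replicate 1, 0.0565 without saline mutant replicate 3 and 0.14 without the libraries with Xist. Mesothelial markers, 4 of 4 with a row, summed to 3 to 6, 2 to 8 and 6 to 10, with none called between the saline groups. Skeletal muscle markers, 6 of 8 with a row, summed to 10 to 21, 241 to 262 and 112 to 249, nearly all of it Myot; Mylpf was at most 2, and Myh1 and Actn3 had no row.

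In the authors' deposited tables of selected genes, Aqp8 and Aqp4 were in the list of 689 genes for saline mutant against wild type and in that of 137 genes for treated against saline mutant, and Aqp8 alone was in that of 317 genes for treated mutant against wild type. The authors' deposited table gave Aqp8 log2 fold changes of 5.1 (SE 0.648), -1.18 (SE 0.316) and 3.93 (SE 0.731) in these comparisons. For Aqp7 the authors' deposited table gave -0.45 (SE 0.321), -0.24 (SE 0.387) and -0.68 (SE 0.372). For Aqp4 it gave -1.31 (SE 0.74) between treated mutant and wild type. Its fold changes against the saline mutants, where Aqp4 was listed at 0, are not quoted. Aqp1 and Aqp7 were in none of the authors' selected lists.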

How the data were processed

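Heart RNA from 9 libraries was analysed as the authors deposited it, in 3 tables, 1 for each pair of groups. Per the submitters' processing notes, HISAT2, HTSeq and DESeq2 were used and the build was mm10; annotation and filters are not given in the sources used here. The deposited library values were treated as a score, since they are whole numbers that sum to nearly the same total in each library and no header names their unit. The authors' deposited mean signal, log2 fold changes, test score and p-values come from their own comparisons, and only the log2 fold changes and their standard errors are quoted.

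Each pair of groups was fitted with limma 3.58.1 (R 4.3.3) on log2(value + 1), for genes with a mean of at least 1. The variance that rounding alone gives (1/12 in squared value units) served as a lower bound for each residual variance, and the prior degrees of freedom came from genes with a mean of at least 30. Genes were called at a Benjamini-Hochberg adjusted p under 0.05 over all genes tested; the fit was tested on simulated data. The members, lists and variance step were chosen with earlier results of these data known. Named were the members, called genes of each list (at most 4 per comparison, by p), genes a statement of background needed, and the 3 most like genes per member. Positions are from GENCODE M21, promoters from RefSeq. Hyphens in symbols were matched to the dots of the tables. Some listed genes are counted in the tests but not reported here by name.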

Additional observations from a re-analysis of the deposited data

How the results depend on the processing

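Every log2 difference given above for the 4 members moved by less than the spread between replicates in the alternative fits (149 values). For most of these fits that outcome was fixed in advance. Changes to the filter or the variance, the joint fit and the replicate block leave a difference of group means as it is. Leaving out 1 of 3 libraries cannot move it beyond that spread. Only the pseudocount, the size factors and leaving out the libraries with Xist could have done so. No log2 difference was computed for Aqp4 against the saline mutants, so these values do not cover its fall or its return. The log2 difference of Aqp8 ranged from 4.38 to 4.93 between saline mutant and wild type, from -1.37 to -0.99 with treatment, and from 3.17 to 3.7 between treated mutant and wild type. Between saline mutant and wild type, leaving out 1 replicate gave 506 to 1029 called genes, and leaving out the 3 libraries with Xist gave 556. Between treated and saline mutant, leaving out 1 replicate gave 2 to 8 genes. The count there was 6 with a mean of at least 10, 10 with median-of-ratios factors (8 higher and 2 lower), 32 with limma eBayes with a trend and no rounding floor, 14 with the prior from all genes, 13 with all 9 libraries in 1 fit and 30 with the replicate block. Between treated mutant and wild type, leaving out 1 replicate gave 1 to 133 genes. The count was 86 with no filter, 77 with that eBayes fit, 243 with the prior from all genes, 236 with all 9 libraries in 1 fit, 35 with the replicate block and 9 without the libraries with Xist. The cause of these differences was not tested. The replicate block called 819 genes between saline mutant and wild type, and Mgll (0.0597), Gpx3 (0.0759), Slc12a7 (0.0978) and Stk39 (0.0724) lost their call under it. Same-numbered libraries did not deviate together throughout (correlations from -0.37 to 0.574), so the numbers were not taken as pairs. Depth is unknown, and rounding limits what can be said of genes with values of a few units, such as Aqp4 and Aqp11.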

Other observations

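Genes within 250 kb of each member were read as well, a choice made after the values had been seen. Near Aqp1, 4 genes were tested, and 2 of them fell between saline mutant and wild type. Of all genes tested there, 3.14% were called lower and 7.70% in either direction. The 2 that fell, Crhr2 at 203 kb and Inmt at 161 kb, were the farthest from Aqp1. The closer Mindy4 (16.2 kb) and Adcyap1r1 (103 kb) were not called. Crhr2, a receptor of the urocortin peptides, was 26, 25 and 25 in wild type, 7, 8 and 5 in saline mutants, with 12, 15 and 15 in treated hearts, a log2 difference of -1.8 (SE 0.168, limma adjusted p 0.00059, and at most 0.00795 in 15 alternative fits). Inmt, a methyltransferase, was 5, 5 and 10, then 3, 1 and 2, then 2, 6 and 5 (-1.35, SE 0.321, limma adjusted p 0.0381), and leaving out wild type replicate 1 (0.0953) or 3 (0.122), saline mutant replicate 2 (0.135) or 3 (0.0989), or the libraries with Xist (0.135) ended its call. Aqp1 itself overlapped between those groups. The 2 genes tested near Aqp8, Arhgap17 and Lcmt1, the 8 near Aqp7 and the 1 near Aqp4, Kctd1, were not called in any comparison. Besides Aqp4, which was at 0 in every saline mutant, 2 genes were at 0 in every wild-type heart and at least 5 in every saline mutant: Edn3 and Krt8.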
